A study of Mus musculus with 6 samples.

Results

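The PI3K and mTOR pathway was followed in regulatory T cells (Treg) through 9 genes, taken as the rows of the deposited count table that carry the names Pik3ip1, Pik3cd, Akt1, Tsc1, Tsc2, Rheb, Mtor, Rptor and Rictor. All 9 were found among the 29199 genes of the table, and all 9 passed the filter on low counts. The rule picks genes by name and has no threshold on a measured value, but the 9 names were chosen with earlier results of these data known. Total RNA was sequenced from 6 Treg libraries, 3 from mice that had received wild-type (WT) conventional CD4 T cells (Tconv) and 3 from mice that had received Tconv lacking HP1α, a heterochromatin protein. Recipients were lethally irradiated C57BL/6J mice or B6 mice congenic for CD45.1, reconstituted with a mixture of C57BL/6J and semi-allogeneic B6D2F1 bone marrow depleted of T and NK cells, and Treg were recovered from the spleen by cell sorting 3 weeks later. Treg were WT in both groups. They came from B6 Foxp3-Thy1.1 mice and had been expanded in culture with IL-2 at 500 IU/mL, TGF-β at 0.1 ng/mL and beads coated with anti-CD3 and anti-CD28 antibodies. Stimulation through the antigen receptor was removed after 3 days, and culture went on in fresh medium before transfer. The Treg were sorted back as Thy1.1+ CD4+ cells negative for CD45.1. The knockout (KO) Tconv were naive CD4 T cells of mice in which a CMV-cre transgene had removed the floxed Hp1a allele from the whole animal, and the WT Tconv were those of control littermates. These donor lines were kept on a mixed 129/Sv and C57BL/6 background, and animals were sex-matched and 6 to 12 weeks old. The study's reporting summary states that male mice were used, with its sequencing analyses in view. Whether a library held the cells of 1 mouse or of several is not given in the sources used here. The p-values therefore set group differences against the spread between these libraries, which need not be that between mice.

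Class I PI3K is a lipid kinase that antigen, costimulatory and IL-2 receptors activate at the plasma membrane, and its product recruits the kinase Akt. Akt inhibits the TSC1-TSC2 complex, which otherwise keeps the small GTPase Rheb inactive, and active Rheb switches on mTOR complex 1 (mTORC1, built around Raptor). mTOR complex 2 (mTORC2, built around Rictor) phosphorylates Akt in turn. In Treg this pathway is known to be held under tighter control than in conventional T cells, while some mTORC1 activity is needed for their suppressive function.

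Libraries held 87421755 to 119078882 counts. Levels are given as CPM (counts per 1e6) on totals scaled by the trimmed mean of M values (TMM). Each of the 7 Treg and CD4 T cell markers examined, Foxp3 among them, was at 120.6 CPM or more in every library. Of these markers, Ctla4 had 1246, 1349 and 1112 CPM with WT Tconv and 1028, 1018 and 798 CPM with HP1α KO Tconv. Its groups did not overlap, while those of the other markers did, and its part in the result was not tested. Replicate 3 of Treg with WT Tconv stood apart, with 6261 CPM of summed red cell genes, 1973 CPM of neutrophil genes and 182 CPM of macrophage or monocyte genes. The other 5 libraries had 394 to 729, 44.8 to 238 and 13.3 to 48.3 CPM of these lists. B cell genes summed to 25.2 to 36.8 CPM over the 6 libraries, plasma cell genes to 127 to 187 CPM, of which Xbp1 held nearly all, NK cell genes to 62.6 to 143 CPM, of which Nkg7 held most, and CD8 T cell genes to 5.82 to 8.77 CPM. Ncr1 and Cd8a did not exceed 1.62 and 0.495 CPM. In bulk libraries, fewer cells that express a gene and less RNA per cell cannot be told apart. Values without WT Tconv replicate 3 are given for the 9 members and for the named genes of the wider pathway.

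Of the 9 genes, none had an adjusted p-value under 0.05 in edgeR (quasi-likelihood F-test, Benjamini-Hochberg adjustment over 18321 genes), which called 0% of all genes. Pik3ip1 and Pik3cd were at higher levels in all 3 libraries of Treg with HP1α KO Tconv than in any library of Treg with WT Tconv, and Rheb and Rictor were at lower levels in all 3. For the other 5 genes the groups overlapped. The share of all tested genes whose groups did not overlap was 23%, against 4 of the 9 here. The same 4 genes had an unadjusted edgeR p-value under 0.05, as did 14.5% of all genes tested, 6.98% in the higher and 7.52% in the lower direction. DESeq2 called 1 of the 9, Pik3ip1, where 4.35% of the genes with an adjusted p-value were called (1.31% higher, 3.03% lower), and limma-voom called 0. Log2 fold changes were above 0 for 6 of the 9 genes and for 48.5% of all genes tested. The median log2 fold change (HP1α KO Tconv over WT Tconv) was 0.05 over the 9 genes and -0.01 over all genes tested. The median absolute log2 fold change was 0.17 in both. All genes tested include many at far lower counts than the 9, and the 2 sets were not matched for level.

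**Figure D1:**
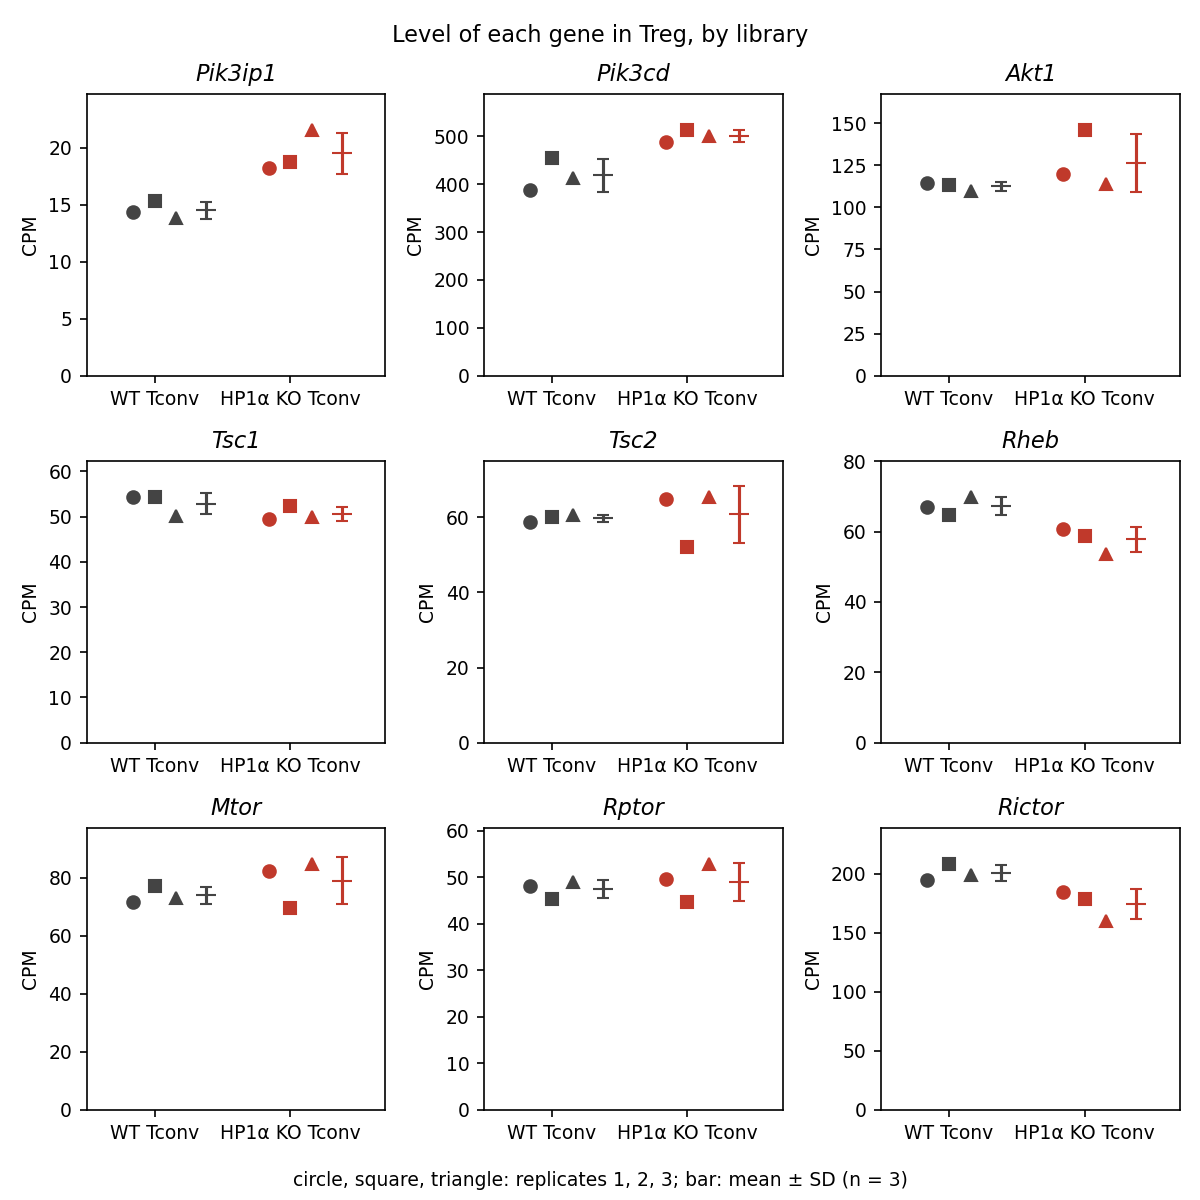
Level of each of the 9 genes in CPM (axes from 0) in 3 libraries with WT Tconv (grey) and 3 with HP1α KO Tconv (red), with mean ± SD beside the points. Pik3ip1 and Pik3cd lay higher in every HP1α KO library, Rheb and Rictor lay lower in every one, and replicate 2 of the HP1α KO group had the lowest Tsc2, Mtor and Rptor and the highest Akt1 of the 6 libraries.

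For the 4 genes whose groups did not overlap, the 250 bases before the annotated start are shown. These windows differ in their content of CpG, the dinucleotide in which mammalian DNA is methylated. The genes were picked by their measured levels, and a link between CpG content and the direction of change was not tested. Sequences are RefSeq's, of GRCm38.p6, written 5′ to 3′ on the strand of the gene, with each CpG in capitals. Entries were found for all 9 genes, and for Pik3cd the most upstream of 3 listed starts is shown. Which start these Treg use was not examined.
Pik3ip1, chr11:3330481-3330730, plus strand: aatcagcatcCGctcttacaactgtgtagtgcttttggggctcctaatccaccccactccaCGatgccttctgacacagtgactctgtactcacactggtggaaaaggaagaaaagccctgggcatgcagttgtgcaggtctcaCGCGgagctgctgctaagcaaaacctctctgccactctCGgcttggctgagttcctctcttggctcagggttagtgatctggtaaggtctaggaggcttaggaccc
Pik3cd, chr4:149698709-149698958, minus strand: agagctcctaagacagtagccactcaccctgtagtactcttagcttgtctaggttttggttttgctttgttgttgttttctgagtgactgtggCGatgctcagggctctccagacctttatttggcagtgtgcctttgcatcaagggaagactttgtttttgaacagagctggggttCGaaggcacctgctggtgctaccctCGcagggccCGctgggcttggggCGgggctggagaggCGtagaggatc
Rheb, chr5:24842362-24842611, minus strand: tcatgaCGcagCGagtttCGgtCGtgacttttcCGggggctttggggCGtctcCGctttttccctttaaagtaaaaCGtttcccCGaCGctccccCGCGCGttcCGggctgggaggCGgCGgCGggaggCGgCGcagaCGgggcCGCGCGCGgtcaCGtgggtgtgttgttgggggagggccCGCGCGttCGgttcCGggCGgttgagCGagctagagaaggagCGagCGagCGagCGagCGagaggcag
Rictor, chr15:6708131-6708380, plus strand: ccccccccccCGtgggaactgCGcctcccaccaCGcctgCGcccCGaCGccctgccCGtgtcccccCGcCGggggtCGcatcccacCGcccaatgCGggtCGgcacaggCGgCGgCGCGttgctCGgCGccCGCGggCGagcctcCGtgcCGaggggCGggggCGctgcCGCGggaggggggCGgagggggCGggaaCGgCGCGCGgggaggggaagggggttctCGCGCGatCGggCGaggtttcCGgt
The Pik3ip1 and Pik3cd windows held 5 and 6 CpG, against a median of 6 over 32851 windows of this length. The other Pik3cd starts held 19 and 4. The Rheb and Rictor windows held 37 and 40, more than 97.8% and 98.7% of all windows. Among the other 5 genes, whose groups overlapped, the windows held 7 and 31 CpG for the starts of Akt1, 16 for Tsc1, 24 for Tsc2, 19 for Mtor and 9 for Rptor. The FOXO core motif TGTTTAC, searched on both strands, was present in 1 of the 12 windows of the 9 genes, at a start of Akt1, and in 3.17% of all windows.

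Levels were then compared between genes per length of exon. Pik3cd stood highest, at 52.8 ± 5.79 CPM per kilobase of exon (SD, n = 6), followed by Akt1 at 15.3 ± 1.698, Rictor at 11.0 ± 1.00, Rheb at 7.84 ± 0.738, Mtor at 7.28 ± 0.581 and Tsc2 at 5.82 ± 0.465. Rptor, Tsc1 and Pik3ip1 stood lowest, at 3.58 ± 0.222, 3.57 ± 0.152 and 3.25 ± 0.574. Ranges over the 6 libraries did not overlap between neighbours in this order, except between Rheb and Mtor and among the last 3 genes. The scaffold of mTORC2 was thus measured at a higher level than that of mTORC1 in every library. The log2 ratio of Rictor over Rptor per kilobase was 1.69, 1.86 and 1.69 with WT Tconv and 1.56, 1.66 and 1.27 with HP1α KO Tconv, so the groups did not overlap. Its mean was 1.75 ± 0.102 (SD, n = 3) and 1.49 ± 0.206 (SD, n = 3), a difference of -0.25. Without HP1α KO Tconv replicate 3 the difference was -0.14, and with an offset for the GC content of exons, added once the data had been seen, the log2 fold change of Rictor less that of Rptor was -0.11. The log2 ratio of Tsc1 over Tsc2 overlapped between groups, with means of -0.66 ± 0.0848 and -0.74 ± 0.228, and so did that of Pik3ip1 over Pik3cd, with means of -4.11 ± 0.0780 and -3.95 ± 0.125. Exon lengths cover all annotated isoforms, so a gene with long rarely used exons is placed too low.

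**Figure D2:**
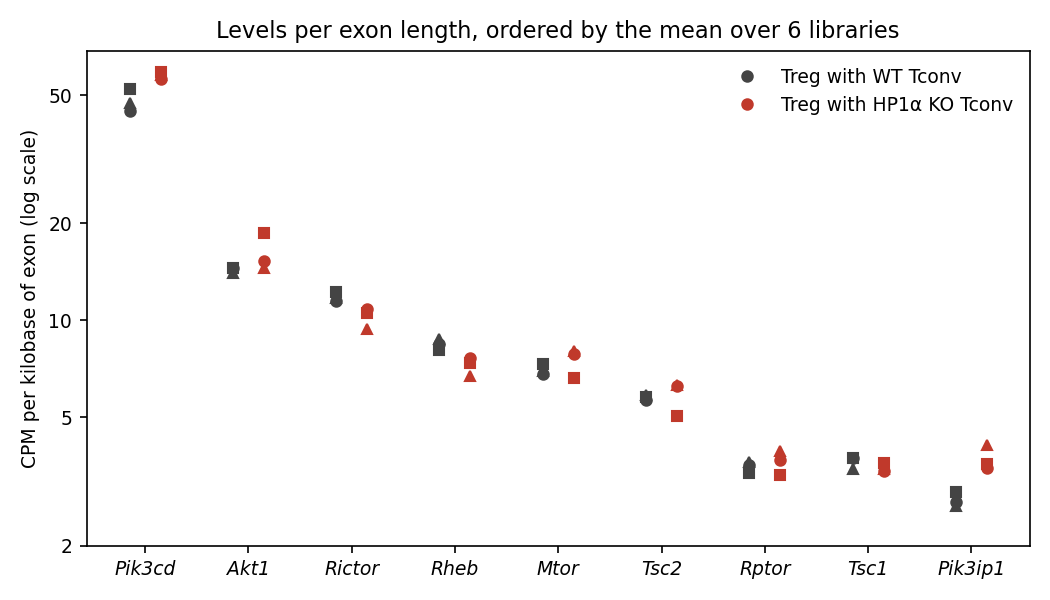
Level of each gene in CPM per kilobase of annotated exon, on a log axis, in each of the 6 libraries (circles, squares and triangles are replicates 1, 2 and 3). Genes are ordered by their mean over the libraries, from 52.8 for Pik3cd to 3.25 for Pik3ip1.

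Pik3ip1 encodes a transmembrane protein that binds the catalytic subunit of PI3K and restrains it. The gene (ENSMUSG00000034614, GRCm39 chromosome 11, 3280401 to 3292971, plus strand) had 14.3, 15.3 and 13.9 CPM in replicates 1, 2 and 3 of Treg with WT Tconv. It had 18.2, 18.7 and 21.5 CPM in those of Treg with HP1α KO Tconv. Every HP1α KO library was above every WT library, and the difference between means, 5.00 CPM, exceeded the SD of either group (0.730 and 1.77 CPM, n = 3). These levels rested on 1376 to 1900 counts per library. On the log2 scale the fold change was 0.43 ± 0.0969 (SE), a 34.5% higher level. The unadjusted edgeR p-value was 0.0021, which ranked 172 among 18321 genes, and the adjusted p-value was 0.209. DESeq2 gave an adjusted p-value of 0.0163, which became 0.0875 without WT Tconv replicate 3 and 0.0722 with the replicate number as a block. On the log2 scale, the change was 0.35 without HP1α KO Tconv replicate 3 and 0.49 without replicate 1 of that group. The lncRNA Gm12592 shares 9% of the exonic bases of Pik3ip1 on the opposite strand and had 24 to 51 counts. A further lncRNA, Gm74265, shares 14.8% on that strand and has no row in the deposited count table.

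Pik3cd encodes p110δ, the PI3K catalytic subunit that predominates in lymphocytes. The gene (ENSMUSG00000039936, chromosome 4, 149732411 to 149787028, minus strand) had 388, 455 and 413 CPM with WT Tconv and 488, 513 and 502 CPM with HP1α KO Tconv. The lowest HP1α KO library was above the highest WT library. Means were 419 ± 33.8 and 501 ± 12.3 CPM (SD, n = 3), and the log2 fold change was 0.26 ± 0.0770 (SE). Its edgeR p-value was 0.00956 unadjusted and 0.229 adjusted, and its DESeq2 adjusted p-value was 0.0832. Clstn1, on the opposite strand, overlaps 14.3% of its exonic bases and had a log2 fold change of 0.17 ± 0.0825 (SE), from 3503 to 4087 counts per library against 37293 to 51220 for Pik3cd.

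Akt1 encodes the Akt isoform that is widely expressed and carries the PI3K signal to TSC2 and to the FOXO factors. It is located on chromosome 12 (112620248 to 112645654, minus strand). The level was 114, 114 and 109.7 CPM with WT Tconv and 119.6, 146 and 114 CPM with HP1α KO Tconv, so the groups overlapped and HP1α KO Tconv replicate 2 was the highest library. The log2 fold change was 0.17 ± 0.0960 (SE), with an adjusted p-value in edgeR of 0.468, and it was 0.05 without that replicate. Siva1, on the opposite strand, covers 42.7% of the exonic bases of Akt1. It had 1199 to 2321 counts per library against 10064 to 14572 for Akt1, and a log2 fold change of -0.05 ± 0.175 (SE). The library kit marks the strand, but whether the counting used it is not given in the sources used here.

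Tsc1 and Tsc2 encode hamartin and tuberin, the complex that inactivates Rheb. Tsc1 (chromosome 2, 28531061 to 28581179, plus strand) had 54.3, 54.3 and 50.1 CPM with WT Tconv and 49.4, 52.3 and 49.9 CPM with HP1α KO Tconv. Its groups overlapped, and its log2 fold change was -0.07 ± 0.0671 (SE), with an adjusted p-value in edgeR of 0.688. Tsc2 (chromosome 17, 24814783 to 24852192, minus strand) had 58.7, 59.97 and 60.6 CPM with WT Tconv and 64.9, 52.1 and 65.3 CPM with HP1α KO Tconv. The HP1α KO libraries lay on both sides of the WT range, replicates 1 and 3 above it and replicate 2 below it. Tsc2 had a log2 fold change of 0.02 ± 0.0943 (SE), with an adjusted p-value in edgeR of 0.927. Without HP1α KO Tconv replicate 2 it was 0.12, and it turned to -0.01 and -0.03 without replicates 1 and 3. Pkd1 and Nthl1, on the opposite strand, share 6.76% and 5.28% of the exonic bases of Tsc2. Pkd1 had 14865 to 18126 counts per library, more than the 5209 to 7095 of Tsc2, and a log2 fold change of 0.12 ± 0.0912 (SE), and Nthl1 had 95 to 134 counts.

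Rheb encodes the GTPase that activates mTORC1. The gene (ENSMUSG00000028945, chromosome 5, 25007821 to 25047622, minus strand) had 67.1, 64.6 and 69.7 CPM with WT Tconv and 60.8, 58.8 and 53.7 CPM with HP1α KO Tconv. All 3 libraries with HP1α KO Tconv were below all 3 with WT Tconv. Means were 67.1 ± 2.56 and 57.7 ± 3.67 CPM (SD, n = 3), and the difference of -9.40 CPM was larger than either SD. The log2 fold change was -0.22 ± 0.0725 (SE), and the edgeR p-value was 0.0165 unadjusted and 0.248 adjusted. DESeq2 gave an adjusted p-value of 0.174. On the log2 scale the change ranged from -0.24 to -0.17 over the fits that each left out 1 library.

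Mtor encodes the kinase common to both complexes. It lies on chromosome 4 (148533015 to 148642141, plus strand) and had 71.6, 77.1 and 73.0 CPM with WT Tconv. With HP1α KO Tconv it had 82.4, 69.5 and 84.6 CPM, with replicates 1 and 3 above the WT range and replicate 2 below it. The log2 fold change was 0.09 ± 0.0867 (SE), with an adjusted p-value in edgeR of 0.653. Rptor, which encodes the mTORC1 scaffold Raptor (chromosome 11, 119493731 to 119790402, plus strand), had 48.05, 45.3 and 49.0 CPM with WT Tconv and 49.7, 44.8 and 52.8 CPM with HP1α KO Tconv. Here too replicate 2 with HP1α KO Tconv was the lowest of the 6 libraries and replicates 1 and 3 the highest. Its log2 fold change was 0.05 ± 0.0805 (SE), with an adjusted p-value in edgeR of 0.809. It was 0.11 without HP1α KO Tconv replicate 2 and turned to -0.01 without replicate 3 of that group. Gm69672, which shares 6.11% of the exonic bases of Rptor on the same strand, has no row in the deposited count table.

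Rictor encodes the mTORC2 scaffold. The gene (ENSMUSG00000050310, chromosome 15, 6737860 to 6829882, plus strand) had 195, 208 and 199 CPM with WT Tconv and 184, 179 and 160.3 CPM with HP1α KO Tconv. All 3 libraries with HP1α KO Tconv were below all 3 with WT Tconv, with means of 201 ± 6.59 and 175 ± 12.7 CPM (SD, n = 3). The log2 fold change was -0.20 ± 0.0728 (SE), a change of -13.2%, and the edgeR p-value was 0.0227 unadjusted and 0.27 adjusted. DESeq2 gave an adjusted p-value of 0.192.

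**Figure D3:**
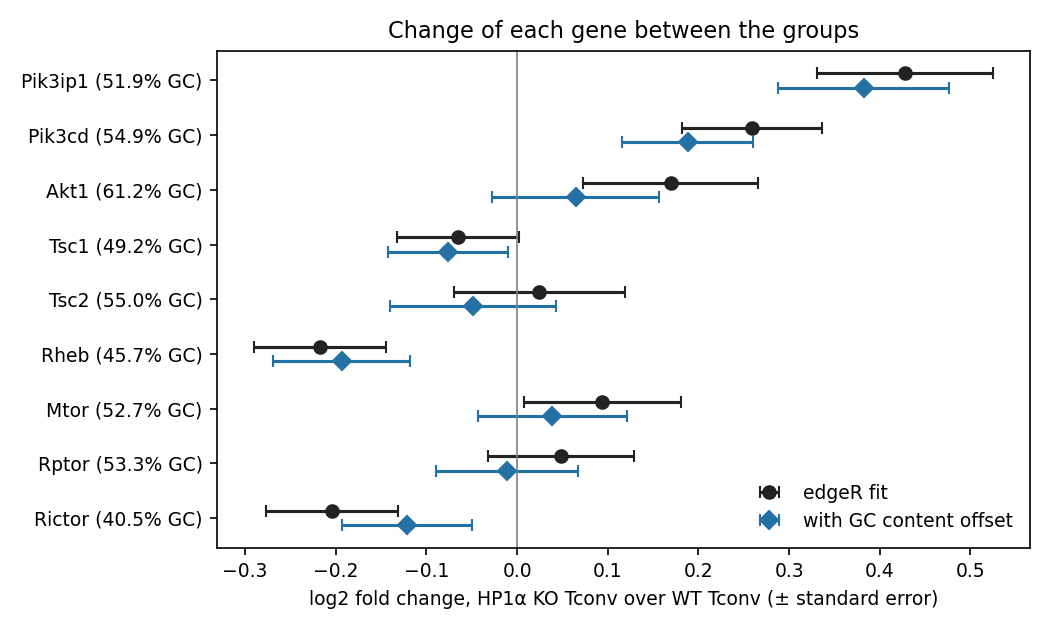
Log2 fold change of each gene (HP1α KO Tconv over WT Tconv, bars are ± 1 standard error) in the edgeR fit (black circles) and in the same fit with an offset for GC content (blue diamonds), with the GC content of the exons beside each name. With the offset, Pik3ip1 was at 0.38 and Rheb at -0.19, and Rictor moved from -0.20 to -0.12.

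The order of these changes was then set against base composition, since the GC content of exons ranged from 40.5% in Rictor to 61.2% in Akt1. Over the 18189 tested genes with a known GC content, genes under 45% GC had a median log2 fold change of -0.08 and genes over 55% GC one of 0.07. The libraries divided in the same way. The median log2 deviation of genes over 55% GC, less that of genes under 45% GC, was -0.10, -0.06 and -0.01 in replicates 1, 2 and 3 with WT Tconv and 0.05, 0.06 and 0.04 in those with HP1α KO Tconv. Genes within 1 percentage point of the GC content of Rictor had a median log2 fold change of -0.10, and those around Rheb one of -0.03. Those around Pik3ip1 and Pik3cd had 0.04 and 0.06. The source of this trend was not tested. When the trend of each library was removed by that offset, the log2 fold change was 0.38 for Pik3ip1, 0.19 for Pik3cd and -0.19 for Rheb, with standard errors of 0.0945, 0.0724 and 0.0760. That of Rictor was -0.12 ± 0.0716 (SE), and its unadjusted edgeR p-value was 0.129. Those of Akt1 and Mtor were 0.06 and 0.04, and those of Tsc2 and Rptor turned to -0.05 and -0.01. Under this offset 3 of the 9 genes had an unadjusted edgeR p-value under 0.05, as did 12.5% of all genes tested. None of the 9 and 0 of all genes had an adjusted one under 0.05, and the lowest of the 9 was 0.283 for Pik3ip1.

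**Figure D4:**
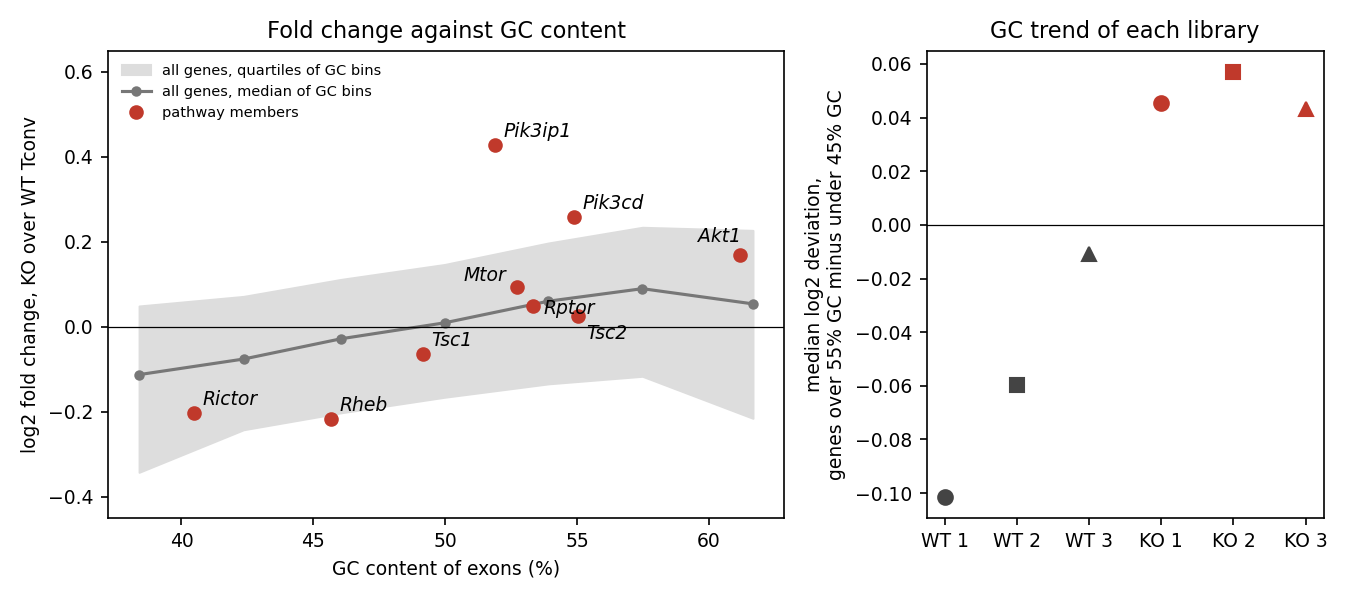
Left, log2 fold change (HP1α KO Tconv over WT Tconv) of the 9 genes (red) against the GC content of their exons in percent, over the median and quartiles of all tested genes in 7 bins of GC content. Right, GC trend of each library, on a log2 scale, below 0 in the 3 WT libraries and above 0 in the 3 HP1α KO libraries.

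Replicate 2 of Treg with HP1α KO Tconv gave the lowest Tsc2, Mtor and Rptor and the highest Pik3cd and Akt1 of the 6 libraries. The same library had 154 CPM of Foxp3, 121 CPM of Il2ra and 147 CPM of Cd3e, against 200.1 to 252, 161 to 199 and 188 to 221 CPM in the other 5. Its 688 CPM of Cd4 was also the lowest of the 6 libraries, so that 4 of the 7 markers were lowest there. Its 578 CPM of Tnfrsf18 was the highest of the 6, its Ikzf2 and Ctla4, at 1822 and 1018 CPM, lay within the range of the others, and the 7 markers summed to 4528 CPM, the most in the HP1α KO group. NK cell genes summed to 62.6 CPM in that library, against 104 to 143 CPM in the other 5, with Nkg7 at 54.1 against 93.5 to 135 CPM. The part of these differences in the result was not tested. Without that library, the groups did not overlap for 8 of the 9 genes, all but Akt1, where 36.9% of all genes tested in the remaining 5 libraries did not overlap. Pik3ip1, Pik3cd, Tsc2, Mtor and Rptor were then higher with HP1α KO Tconv, and Tsc1, Rheb and Rictor lower. Since the library was singled out for its low Tsc2, Mtor and Rptor, leaving it out had to raise these genes in the HP1α KO group, and the values are a description. Mtor had a log2 fold change of 0.18 without replicate 2 of that group, 0.07 without replicate 1 and 0.04 without replicate 3. Without WT Tconv replicate 3, the library with red cell and neutrophil transcripts, the log2 fold changes were 0.40 for Pik3ip1, 0.25 for Pik3cd, -0.19 for Rheb and -0.21 for Rictor. Those of Akt1, Tsc1, Tsc2, Mtor and Rptor were 0.15, -0.10, 0.03, 0.09 and 0.07.

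The wider pathway was examined in 92 further genes, grouped by role, of which 90 passed the filter (Ddit4l and Prkaa2 did not). None was called by edgeR or by limma-voom. An unadjusted edgeR p-value under 0.05 was obtained for 13 of the 90 genes (14.4%), 6 higher and 7 lower with HP1α KO Tconv, against 14.5% of all genes tested. DESeq2 called 4 of the 85 that had an adjusted p-value (4.71%), Pik3ap1, Fnip1, Castor1 and Ulk1, against 4.35% of all genes. The median log2 fold change was -0.01, with 45 genes above 0 and 45 below. The groups did not overlap for 27 genes (30%), against 23% of all genes tested. By role, these were 2 of 9 PI3K subunits and adaptors and 2 of 7 phosphatases. They were also 2 of 5 kinases of the PDK1, Akt and SGK group and 9 of 29 genes of amino acid sensing. In the mTOR complex list, which also holds Tbc1d7 and Rhebl1, they were 3 of 11. The rest were 1 of 6 energy and stress inputs, 6 of 13 substrates and effectors of mTORC1 and 2 of 10 FOXO factors and targets.

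**Figure D5:**
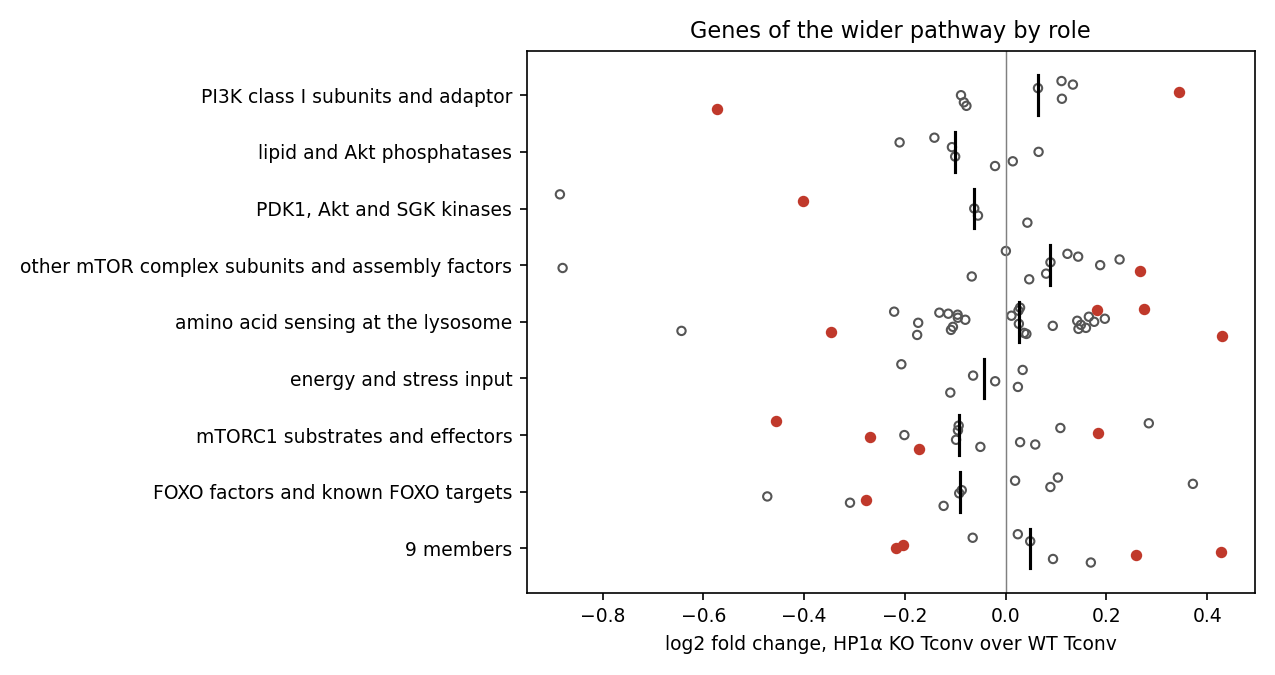
Log2 fold change (HP1α KO Tconv over WT Tconv) of the 90 tested genes of the wider pathway and of the 9 members, 1 row per role, with filled red points for an unadjusted edgeR p-value under 0.05 and a black line at the median of each row. Medians of the rows lie between -0.10 and 0.09.

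Among the 9 other PI3K subunits and adaptors, 5 had log2 fold changes above 0 and 4 below. Pik3ap1, an adaptor that links receptors to PI3K, had 15.3, 19.7 and 17.2 CPM with WT Tconv and 13.2, 11.1 and 10.8 CPM with HP1α KO Tconv. Its groups did not overlap, and its log2 fold change was -0.57 ± 0.126 (SE), with adjusted p-values of 0.209 (edgeR) and 0.00476 (DESeq2). The latter test also called it without WT Tconv replicate 3 and with the replicate number as a block. Pik3r2, which encodes the regulatory subunit p85β, had a log2 fold change of 0.34 ± 0.128 (SE), with an adjusted p-value in edgeR of 0.285.

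Of the 7 phosphatases that oppose PI3K and Akt, 2 had log2 fold changes above 0 and 5 below, and none had an unadjusted edgeR p-value under 0.05. Phlpp1, which dephosphorylates Akt, was at 90.6 ± 1.86 CPM with WT Tconv and 84.2 ± 4.77 CPM with HP1α KO Tconv (SD, n = 3), with a log2 fold change of -0.11 and an adjusted p-value in edgeR of 0.51. Of the 5 kinases of the PDK1, Akt and SGK group, 1 lay above 0 and 4 below. Sgk1, a substrate of mTORC2, had 142, 131 and 146 CPM with WT Tconv and 114, 121 and 81.1 CPM with HP1α KO Tconv. Its log2 fold change was -0.40 ± 0.147 (SE), with an adjusted p-value in edgeR of 0.291. Sgk3 had 15.6 CPM in WT Tconv replicate 3 against 3.45 to 5.27 CPM in the other 5 libraries. Its log2 fold change was -0.88, with an adjusted p-value in edgeR of 0.601. It turned to 0.15 without that library.

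A list of 11 genes held other mTOR complex subunits and assembly factors, and also Tbc1d7, of the TSC complex, and Rhebl1, related to Rheb. Of the 11, 9 lay above 0, Tbc1d7 and Rhebl1 among them, and 2 below. The groups did not overlap for 3, Mlst8, Tti1 and Tbc1d7, all of them higher with HP1α KO Tconv. Of all genes tested, 11.5% did not overlap in that direction and 23% in either. Mlst8, a subunit of both mTOR complexes, had 19.7, 18.2 and 20.3 CPM with WT Tconv and 23.7, 22.6 and 23.7 CPM with HP1α KO Tconv, so that the groups did not overlap. Its log2 fold change was 0.27 ± 0.0789 (SE), with an adjusted p-value in edgeR of 0.229. Tti1, which helps assemble mTOR and related kinases, was at 38.5 ± 0.779 and 41.9 ± 0.286 CPM, with an edgeR adjusted p-value of 0.415. Of the 29 genes of amino acid sensing at the lysosome, 17 lay above 0 and 12 below. Fnip1, a partner of folliculin, had 56.7, 53.4 and 60.3 CPM with WT Tconv and 46.9, 44.8 and 42.3 CPM with HP1α KO Tconv, and its log2 fold change was -0.35, with adjusted p-values of 0.209 (edgeR) and 0.0193 (DESeq2). Castor1, an arginine sensor, had 21.0, 23.1 and 21.1 CPM with WT Tconv and 31.6, 31.5 and 24.7 CPM with HP1α KO Tconv, and its log2 fold change was 0.43, with adjusted p-values of 0.209 (edgeR) and 0.0292 (DESeq2). DESeq2 no longer called Fnip1 or Castor1 without WT Tconv replicate 3.

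Energy and stress inputs numbered 6 tested genes, 2 above 0 and 4 below, with no unadjusted edgeR p-value under 0.05. Stk11, which encodes the AMPK-activating kinase LKB1, and Ddit4, a stress-induced inhibitor of mTORC1, lay at -0.21 and -0.11 on the log2 scale, and their adjusted p-values in edgeR were 0.486 and 0.527. Of the 13 substrates and effectors of mTORC1, 5 lay above 0 and 8 below. The groups did not overlap for 6 of them (46.2%), 2 higher and 4 lower with HP1α KO Tconv, and 4 (30.8%) had an unadjusted edgeR p-value under 0.05, against 23% and 14.5% of all genes tested. Ulk1, the autophagy kinase that mTORC1 inhibits, had 94.8, 113 and 123 CPM with WT Tconv and 91.1, 84.5 and 65.8 CPM with HP1α KO Tconv. Its groups did not overlap, and its log2 fold change was -0.46 ± 0.143 (SE), with adjusted p-values of 0.244 (edgeR) and 0.0345 (DESeq2), which did not call it without WT Tconv replicate 3. Lpin1, a phosphatidate phosphatase under mTORC1 control, had a log2 fold change of -0.27 and an adjusted p-value in edgeR of 0.252. Among the 10 FOXO factors and known FOXO targets, 4 lay above 0 and 6 below. Cdkn1b, which encodes the cell cycle inhibitor p27, had 319.6, 365 and 338 CPM with WT Tconv and 292, 259 and 293 CPM with HP1α KO Tconv. Its groups did not overlap, and its log2 fold change was -0.28 ± 0.0808 (SE), with adjusted p-values of 0.225 (edgeR) and 0.0655 (DESeq2). Ccr7, a chemokine receptor for homing to lymph nodes, had overlapping groups and a log2 fold change of -0.31 ± 0.135 (SE), with an adjusted p-value in edgeR of 0.352.

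Without WT Tconv replicate 3, none of the named genes of the wider pathway had an edgeR adjusted p-value under 0.05. Among those with lower levels in the HP1α KO group, Pik3ap1 then had a log2 fold change of -0.58, Sgk1 and Ulk1 both had one of -0.37, Fnip1 one of -0.30, Cdkn1b one of -0.28, Ccr7 one of -0.23, Lpin1 one of -0.20, Stk11 one of -0.14, Phlpp1 one of -0.12 and Ddit4 one of -0.09. Pik3r2, Castor1, Mlst8 and Tti1 were at 0.46, 0.41, 0.30 and 0.12. Sgk3 was the exception to the directions found with all 6 libraries.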

How the data were processed

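Total RNA of sorted Treg was sequenced in 6 libraries, 3 per group. Per the study's methods and the submitters' processing notes, the authors trimmed reads, aligned them to GRCm39 with STAR and quantified genes with Salmon, and the deposited table holds estimated counts as whole numbers for 29199 genes. Whether strand was used in counting is not given in the sources used here, so genes that overlap members on the opposite strand are named. Besides those described with each member, Gm30150 and Zbtb42 share 7.23% and 2.08% of the exonic bases of Akt1. Gm71450 shares 2.99% of those of Rheb, Gm69484 1.1% of those of Mtor and Rptoros 0.624% of those of Rptor. Of these genes only Zbtb42 has a row in the deposited count table, and its level was not analysed here. Libraries held 87421755 to 119078882 counts, and each of the 9 members had at least 1376 counts in every library. Replicates of a group differed by more than counting error (chi-square per degree of freedom of 21.29 to 174), so the spread between libraries sets the precision.

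Counts were fitted with edgeR 4.0.16 in R 4.3.3 (filterByExpr, TMM, robust quasi-likelihood F-test) over 18321 genes, with p-values adjusted by the Benjamini-Hochberg method and called under 0.05. DESeq2 1.42.0, the tool of the study, and limma-voom (limma 3.58.1) were alternatives, as were other normalizations, filters, a replicate block and leaving out each library. DESeq2 without WT Tconv replicate 3 or with the block, and the GC content offset with and without the block, were chosen after seeing the data. The GC offset was a loess fit of each library's deviations on exon GC content. Exon length, GC content and coordinates came from the GENCODE annotation of GRCm39, in which 28854 of 29199 identifiers were found. Scripts were tested on simulated data.

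The 9 members and the gene lists were chosen with earlier results of these data known. Besides the members, the genes named were the 2 with the smallest unadjusted edgeR p-value in each role of the wider pathway, and, for Pik3ip1 and Mtor, the 3 genes with mean CPM of at least 10 whose log2 CPM (prior count 2) had the highest Pearson r. A gene that this rule named is not reported here.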

Additional observations from a re-analysis of the deposited data

How the results depend on the processing

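The log2 fold changes of Pik3ip1, Pik3cd, Akt1, Mtor, Tsc1, Rheb and Rictor kept their direction under all 18 alternatives, with ranges of 0.35 to 0.49, 0.19 to 0.34, 0.05 to 0.24, 0.04 to 0.18, -0.11 to -0.03, -0.24 to -0.17 and -0.23 to -0.12. Tsc2 turned to -0.0124 without HP1α KO Tconv replicate 1 and -0.0298 without replicate 3, to -0.0488 with the GC content offset and to -0.0559 with that offset and the replicate block, and ranged from -0.03 to 0.12 when 1 library was left out. Rptor turned to -0.00623 without HP1α KO Tconv replicate 3, to -0.0115 with the GC content offset and to -0.0133 with that offset and the block, and ranged from -0.01 to 0.11 when 1 library was left out. edgeR called 0 genes of 18321 (2656 at an unadjusted p-value under 0.05), 38 with no filter beyond 1 count, and 0 to 2 when 1 library was left out, namely 1 without WT Tconv replicate 2 and 2 without HP1α KO Tconv replicate 1. DESeq2 called 526 genes, 1 member (Pik3ip1, log2 fold change 0.42, adjusted p-value 0.0163) and 4 genes of the wider pathway. Without WT Tconv replicate 3 DESeq2 called 181 genes, no member and 1 gene of the wider pathway. The groups did not overlap for 5 to 8 members when 1 library was left out, the 8 without HP1α KO Tconv replicate 2, where 36.9% of all genes did not overlap, and the 5 without each of the others, where 30.3% to 32.6% did not. The causes were not tested. Each member had at least 1376 counts in every library, and the 3 libraries a group limit every comparison.

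Libraries with the same replicate number had deviations that correlated at -0.08, 0.15 and 0.11, so the numbers were not taken as pairs. With the replicate number as a block, edgeR called 1 gene, also 1 with the GC content offset, and DESeq2 called 265 genes, no member and 1 gene of the wider pathway. Log2 fold changes with the block in edgeR were 0.43 for Pik3ip1, 0.26 for Pik3cd, 0.16 for Akt1, -0.06 for Tsc1, 0.02 for Tsc2, -0.22 for Rheb, 0.09 for Mtor, 0.05 for Rptor and -0.21 for Rictor.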

Other observations

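Among 8847 tested genes with a mean of at least 10 CPM, those whose levels over the 6 libraries were most like Pik3ip1 were Sfi1, Mgat1 and Zfp7, with Pearson r of 0.9947, 0.9944 and 0.9932 as a description. Sfi1, which encodes a centrosomal protein, had 28.2, 30.7 and 26.9 CPM with WT Tconv and 34.3, 35.03 and 39.5 CPM with HP1α KO Tconv. It lies on the same chromosome as Pik3ip1, 137 kb away, and the coding genes between them, Eif4enif1 and Patz1, had log2 fold changes of -0.03 and 0.13. The genes most like Mtor were Mbp, Arhgef1 and Nin, with r of 0.9926, 0.9926 and 0.9894. All 3 had their lowest or second lowest level in HP1α KO Tconv replicate 2, as 167.8 CPM for Mbp, 322 CPM for Arhgef1 and 197.9 CPM for Nin. All genes share the same libraries and depths, and the best of many candidates over 6 points reach high r by selection.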
